A study of Mus musculus with 16 samples.

Results

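Acod1 and Upp1 are 2 of the 32285 genes listed in each of 8 deposited count matrices of cells from mouse melanomas, and their rows were taken by gene symbol in all 8. Acod1 encodes aconitate decarboxylase 1, also called Irg1, and Upp1 encodes uridine phosphorylase 1. The pair was selected on its measured levels in myeloid cells in all 4 groups in earlier analyses of these data, so its levels and its differences between groups, under isotype as under anti-CD40, are a description, with no test. In all barcodes the matrices held 38063 unique molecular identifiers (UMIs, each counting 1 captured RNA molecule) of Acod1 and 18885 of Upp1.

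C57BL/6J mice carried subcutaneous tumours grown from 1000000 cells of the Bro4.1 line of B16 melanoma, with B2m intact (control tumours) or lost (B2m-null tumours). B2m is needed for MHC class I to reach the cell surface. The sample labels write the genotype as that of the mouse, while the design text places the loss in the implanted cells, and the design text was followed. An agonistic antibody to CD40, a receptor of myeloid and B cells, or a rat IgG2a isotype antibody was injected into the peritoneum, 100 µg each on days 6, 9 and 12, and tumours were taken on day 14. All groups share the implanted line, the antibody schedule and the enrichment of CD45+ cells on magnetic beads. Each mouse received 1 hashtag antibody, and mice of a group were pooled before loading. Hashtag counts resolved 5 control isotype mice, 2 control anti-CD40 mice, 5 B2m-null isotype mice and 4 B2m-null anti-CD40 mice, named here by tumour genotype and antibody. The 2 mice of the control anti-CD40 group came from 1 pool loaded on 2 lanes, and each other group from 2 pools. Every lane held mice of 1 group only, so lane and group cannot be told apart.

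Acod1 diverts the citric acid cycle: it decarboxylates cis-aconitate, an intermediate of the aconitase reaction, to itaconate in the mitochondrion. Itaconate inhibits succinate dehydrogenase and modifies Keap1, which releases the transcription factor encoded by Nfe2l2. Activated macrophages and neutrophils are the best-known sources of Acod1, which interferons and Toll-like receptor ligands induce. Upp1 cleaves uridine to uracil and ribose-1-phosphate, and the ribose can feed glycolysis. Inflammatory signals raise Upp1 in macrophages too.

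On mm10, Acod1 (ENSMUSG00000022126) lies on the plus strand of chromosome 14 at chr14:103046977-103056573, with 1 annotated transcript of 5 exons. Upp1 (ENSMUSG00000020407) lies on the plus strand of chromosome 11 at chr11:9118103-9136170, with 9 annotated transcripts. The bases just before each start site are printed to show which of the searched motifs of inflammatory transcription factors lie there. They are from RefSeq (GRCm38.p6), plus strand, at chr14:103046762-103046976 for Acod1 and chr11:9117758-9118007 for Upp1, and capitals mark the only match in each.
Acod1: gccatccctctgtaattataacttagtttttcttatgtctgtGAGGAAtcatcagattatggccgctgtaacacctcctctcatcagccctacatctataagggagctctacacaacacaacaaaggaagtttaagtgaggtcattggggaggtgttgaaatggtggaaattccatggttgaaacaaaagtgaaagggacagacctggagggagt
Upp1: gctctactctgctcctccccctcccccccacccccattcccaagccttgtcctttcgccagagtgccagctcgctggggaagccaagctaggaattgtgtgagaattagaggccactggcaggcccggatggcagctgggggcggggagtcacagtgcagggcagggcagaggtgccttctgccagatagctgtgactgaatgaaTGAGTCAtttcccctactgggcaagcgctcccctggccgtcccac
The capitals in the Acod1 sequence are a PU.1 match (GAGGAA), from 208 to 203 bases before the RefSeq start. The printed Acod1 bases end just before the gene start given above, which lies upstream of that RefSeq start. PU.1, the product of Spi1, is the lineage factor of myeloid cells. The capitals in the Upp1 sequence are an AP-1 match (TGANTCA), from 45 to 39 bases before the start. AP-1 is the dimer of Fos and Jun proteins. Both strands were searched over windows of 300 bases, in which 28.3% of 32851 mouse promoters held the PU.1 letters and 7.81% held the AP-1 letters. The letters of the ISRE motif, of GAS (TTCNNNGAA), of C/EBP (TTNCNNNAA) and of the NF-kB motif were in 3.44%, 8.30%, 36.6% and 8.46% of promoters and in neither window. RefSeq gives Upp1 further start sites. The window of the next one held the same AP-1 match, and that of the last one held a C/EBP match 89 to 81 bases before its start.

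The 8 lanes held 116552 barcodes and 541.1 M UMIs (M, 1000000), between 46.0 and 99.3 M per lane, with medians of 1715 to 4225 UMIs per barcode. After removal of 9676 barcodes with more than 1 hashtag and of low-quality barcodes, 91461 cells were clustered, with both genes left out of the genes used, and 75771 of them were assigned to a mouse. The hashtags of the first B2m-null isotype pool were weak, and 49.6% of its barcodes were assigned. In the first B2m-null anti-CD40 pool 61.9% were assigned, and in the other lanes 75.2% to 85.4%. Any pair of lanes shared at most 92 barcodes. In the cells that clustered as melanoma, B2m was at 1089 to 2135 counts per 1000000 UMIs (CPM) in the control lanes and 189 to 461 CPM in the B2m-null lanes, the order the labels give. The macrophage markers were higher in the macrophage clusters than in other cells for 10 of 10 genes, the neutrophil markers for 8 of 8 and the classical monocyte markers for 7 of 8. Clusters were named from these same markers, so the counts describe the naming and do not test it. Intervals given below for cells or UMIs of a group cover counting error only.

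Of neutrophils, monocytes, macrophages, conventional dendritic cells, B cells and CD8 T cells, neutrophils had the highest mean level of Acod1 in all 4 groups. Levels are UMIs of the gene per 1000000 UMIs of all cells of the class in a mouse, as mean ± SD over mice with at least 20 such cells. In control tumours under isotype, Acod1 was at 1080 ± 282 CPM in neutrophils (n = 3), 116 ± 21.6 in monocytes (n = 5), 79.3 ± 25.5 in macrophages (n = 5) and 20.7 ± 9.02 in conventional dendritic cells (n = 5). Neutrophils and monocytes did not overlap there, nor did macrophages and dendritic cells, while the ranges of monocytes and macrophages overlapped. CD8 T cells, which are not a known source of Acod1, were at 0 to 9.78 CPM per mouse over all groups.

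**Figure D1:**
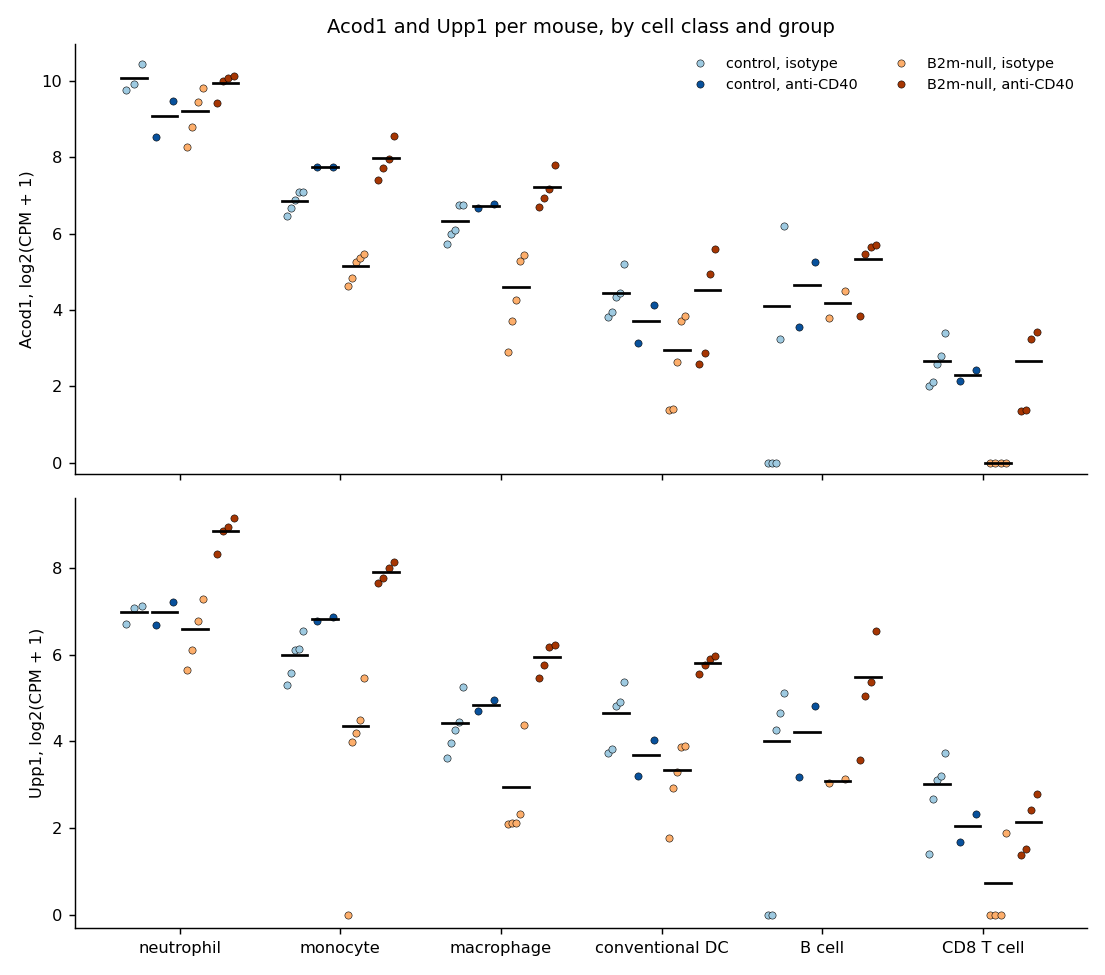
Acod1 (top) and Upp1 (bottom) per mouse as log2(CPM + 1) in 6 cell classes, coloured by group, with 1 point per mouse. The bar is at the mean CPM over mice, put on the log scale after averaging. Acod1 is highest in neutrophils, and for both genes the B2m-null isotype mice lie below the other groups in monocytes, except the mouse at 43.0 CPM of Upp1.

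Upp1 had a higher mean in dendritic cells than in macrophages under isotype in both genotypes, and a lower one under anti-CD40. Under isotype in control tumours it was at 125 ± 19.1 CPM in neutrophils (n = 3), 63.0 ± 21.0 in monocytes (n = 5), 24.4 ± 11.8 in conventional dendritic cells (n = 5) and 20.4 ± 9.93 in macrophages (n = 5). The ranges of dendritic cells and macrophages overlapped, and those of neutrophils and monocytes did not, at 103.3 to 137.9 and 38.6 to 92.1 CPM. Under anti-CD40, macrophages were at 27.6 against 11.8 CPM in dendritic cells of control tumours, and at 60.4 against 55.1 CPM in B2m-null tumours. Endothelial cells, outside these classes, held 6.92% of all Upp1 UMIs from 0.685% of all UMIs in control isotype, against 1.78% from 0.346% for neutrophils. Endothelial cells of control anti-CD40 mice were at 115 ± 36.2 CPM (SD, n = 2).

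In monocytes and macrophages joined, both genes were lowest in B2m-null tumours under isotype and highest in B2m-null tumours under anti-CD40. Acod1 was at 111.1, 73.3, 109.8, 69.3 and 60.4 CPM in the 5 control isotype mice and at 111.9 and 114.3 CPM in the 2 control anti-CD40 mice. In B2m-null tumours it was at 12.7, 21.3, 38.6, 41.1 and 7.40 CPM under isotype and at 153.6, 284.9, 114.4 and 147.2 CPM under anti-CD40. The anti-CD40 mice of B2m-null tumours did not overlap with their isotype group, and the lowest of them lay just above the control anti-CD40 mice.

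Upp1 was at 29.1, 31.8, 42.1, 16.9 and 14.7 CPM in the control isotype mice and at 33.5 and 34.0 CPM in the control anti-CD40 mice. In B2m-null tumours Upp1 was at 4.01, 2.91, 6.62, 24.7 and 4.59 CPM under isotype and at 82.4, 158.5, 70.4 and 94.9 CPM under anti-CD40. The control groups overlapped, and the anti-CD40 mice of B2m-null tumours lay above every other mouse. The fourth B2m-null isotype mouse stood apart from the other 4 and inside the control range.

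In the edgeR fit over all genes of these cells, anti-CD40 went with a log2 change of 3.14 ± 0.42 (SE) for Acod1 and 3.54 ± 0.49 for Upp1 in B2m-null tumours, 8.82-fold and 11.7-fold. Without the fourth B2m-null isotype mouse, the Upp1 change was 4.73. In control tumours the changes were 0.55 ± 0.46 for Acod1 and 0.47 ± 0.54 for Upp1. An adjusted p of 0.05 was passed by 37.2% of 12496 genes in B2m-null and 22.1% in control tumours. Here and in the other cell sets such shares are background, and the pair's own calls are not given. The B2m-null minus control differences of the change were 2.59 ± 0.65 for Acod1 and 3.07 ± 0.77 for Upp1, and 19.3% of genes passed the test of that difference. Under anti-CD40, B2m-null against control tumours differed by 0.64 ± 0.49 for Acod1 and 1.61 ± 0.59 for Upp1, beside 10.6% of genes called. The comparisons share groups: the B2m-null isotype mice are the reference of the B2m-null anti-CD40 change and one side of the genotype comparison under isotype.

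Markers of other cell types were detected in these sums, at levels that differed between groups. All 8 CD8 T cell markers were detected, with summed levels per mouse of 14.0 to 27.0 CPM under isotype in control tumours, 46.4 to 70.7 under anti-CD40 in control tumours, 13.6 to 24.8 under isotype in B2m-null tumours and 34.8 to 52.1 under anti-CD40 in B2m-null tumours. All 8 neutrophil markers were detected too, with medians of 42.9, 74.1, 51.9 and 76.6 CPM in the same order of groups. The 8 melanoma markers, all detected, had medians of 370.0, 1142, 449.6 and 565.7 CPM. They include Gpnmb, a leading gene of the H2-M2 macrophage cluster described below, which held 44.6% of these cells in control anti-CD40. The melanoma sum is therefore not read as RNA of melanoma cells alone. The part of RNA from other cell types in the result was not tested. With cells that held any UMI of Cd3d, Cd3e, Cd3g, Trac, Trbc1 or Trbc2 removed, the anti-CD40 changes in B2m-null tumours were 3.18 for Acod1 and 3.59 for Upp1.

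**Figure D2:**
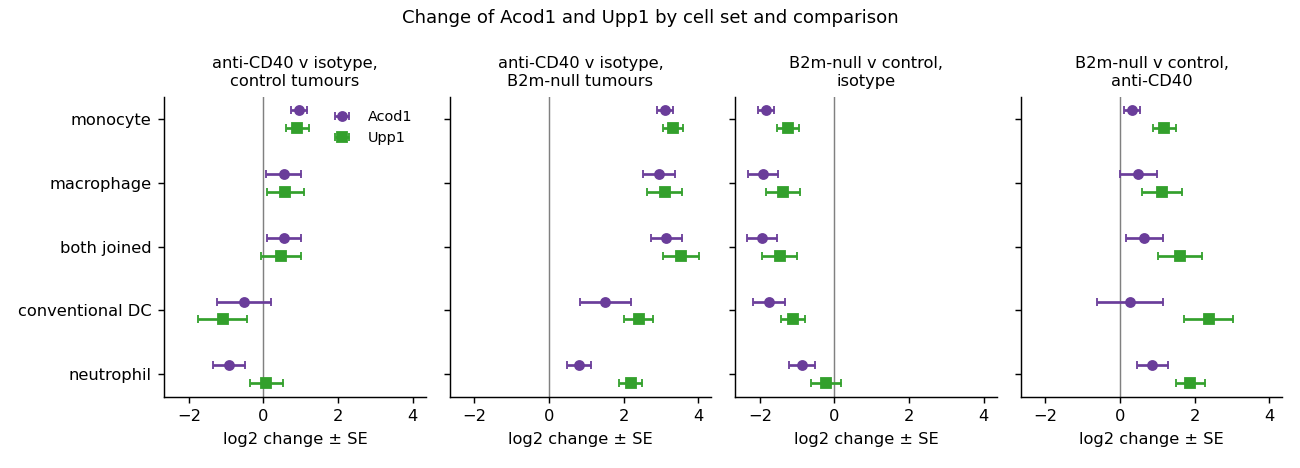
Log2 change ± SE of Acod1 (circles) and Upp1 (squares) from the edgeR fits, by cell set (rows) and comparison (panels). Under anti-CD40 in B2m-null tumours the pair is above 0 in all 5 sets, from 0.82 for Acod1 in neutrophils to 3.54 for Upp1 in monocytes and macrophages joined, and under isotype B2m-null tumours are below control tumours in all 5.

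The 10 isotype mice show the levels without anti-CD40, and they came from separate lanes. In monocytes and macrophages together, Acod1 was at 24.2 ± 15.1 (SD, n = 5) in B2m-null against 84.8 ± 23.9 CPM (n = 5) in control tumours, a log2 difference of -1.95 ± 0.40, and the groups did not overlap. Upp1 was at 8.56 ± 9.11 (n = 5) against 26.9 ± 11.3 CPM (n = 5), a log2 difference of -1.47 ± 0.47, and the groups overlapped through the fourth B2m-null mouse. In this comparison 8.92% of 12496 genes were called and 4.77% were called lower, and the pair's isotype levels were part of the choice.

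The isotype differences moved with the pools. For Acod1 the log2 difference was -1.55 without the first control isotype pool and -1.84 without the first B2m-null isotype pool. For Upp1 it was -0.71 without the first control isotype pool and -0.92 without the first B2m-null one, and -2.74 without the second B2m-null isotype pool and -1.85 without the second control one. Without the fourth B2m-null isotype mouse it was -2.67. Within pools, the control isotype means of Acod1 were 98.1 and 64.8 CPM and the B2m-null ones 24.2 and 24.3 CPM. The Upp1 means were 34.3 and 15.8 CPM in the control pools and 4.51 and 14.6 CPM in the B2m-null pools, closer together in the second pools than in the first.

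The set called monocytes joined a cluster led by Chil3 and Vcan with one led by Ly6i and AA467197. The Ly6i cluster was named by a small margin. Its mean log2 ratio to the other clusters was 1.04 over the classical monocyte markers and 0.766 over the macrophage markers. Of the 8 monocyte markers 5 were raised, and among listed subsets it scored highest for the inflammatory Nos2 genes, at 2.37. The split of monocytes from macrophages therefore rests in part on this name. The Chil3 cluster held 3037 cells of the control isotype group and 3245 of the B2m-null isotype group, against 160 and 39 in the Ly6i cluster. In the B2m-null anti-CD40 group the Chil3 cluster held 817 cells and the Ly6i cluster 2264, and in the control anti-CD40 group they held 673 and 392. In these monocytes Acod1 was at 86.9 to 137 CPM in control isotype mice, 213.5 and 214.3 in control anti-CD40 mice, 23.6 to 43.0 in B2m-null isotype mice and 168.3 to 374.5 in B2m-null anti-CD40 mice. The ranges of the control anti-CD40 and isotype mice did not overlap. The log2 change with anti-CD40 was 0.96 ± 0.22 in control and 3.11 ± 0.22 in B2m-null tumours, beside 9.52% and 34.5% of 9203 genes called.

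When the Chil3 and Ly6i clusters were weighted equally, the Acod1 change in monocytes was 0.04 in control and 0.90 in B2m-null tumours. Without the first B2m-null anti-CD40 pool, which held 1906 of the 2264 Ly6i cells of its group, the change in B2m-null tumours was 2.72. The change of Upp1 in monocytes of B2m-null tumours was 3.33 ± 0.27, and 2.09 with the clusters weighted equally.

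Upp1 in monocytes was at 38.6 to 92.1 CPM in control isotype mice, 108.7 and 116.0 in control anti-CD40 mice, 0 to 43.0 in B2m-null isotype mice and 201.0 to 282.5 in B2m-null anti-CD40 mice. Under isotype, the log2 difference of B2m-null from control monocytes was -1.83 ± 0.22 for Acod1, with no overlap of the mice, and -1.24 ± 0.29 for Upp1, with overlap, beside 3.03% of genes called and 2.11% called lower. The Upp1 difference was -0.69 without the first control isotype pool, -0.91 without the first B2m-null isotype pool and -2.25 without the second B2m-null isotype pool. With the Chil3 and Ly6i clusters weighted equally, the isotype differences were -0.77 for Acod1 and -0.74 for Upp1.

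In macrophages, the larger part of the joined set, Acod1 was at 52.2 to 107 CPM in control isotype mice, 101.6 and 109.1 in control anti-CD40 mice, 6.51 to 42.1 in B2m-null isotype mice and 103.3 to 223.4 in B2m-null anti-CD40 mice. Upp1 was at 11.3 to 36.9, 25.1 and 30.0, 3.29 to 19.9 and 43.1 to 73.4 CPM in the same order of groups. The anti-CD40 changes in B2m-null tumours were 2.96 ± 0.43 for Acod1 and 3.10 ± 0.46 for Upp1, beside 34.5% of 12344 genes called. Under isotype, B2m-null macrophages differed from control ones by -1.92 ± 0.41 for Acod1 and -1.39 ± 0.46 for Upp1, beside 10.2% of genes called. The Acod1 difference was -1.51 without the first control isotype pool and -1.76 without the first B2m-null isotype pool, and the Upp1 difference was -0.74 and -0.87. Without the second control isotype pool the Upp1 difference was -1.75, and without the second B2m-null isotype pool -2.72. In the first pools, Upp1 was at 18.2 to 36.9 CPM in the 3 control isotype mice and 3.29 to 3.36 in the 3 B2m-null isotype mice. In the second pools, the 2 control mice, at 11.3 and 14.7 CPM, lay between the 2 B2m-null mice, at 4.02 and 19.9. With the 7 macrophage clusters weighted equally, the anti-CD40 changes in B2m-null tumours were 1.96 for Acod1 and 2.56 for Upp1, and the isotype differences -1.16 and -0.89.

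The joined set split into 9 clusters, called here by their leading genes. Summed over all cells of a group, both genes were highest in the Ly6i AA467197 cluster of the B2m-null anti-CD40 group. It was at 341 CPM of Acod1 and 273 CPM of Upp1. Acod1 in that cluster was at 318 CPM in control anti-CD40 and 314 CPM in control isotype. Over mice, Acod1 in B2m-null anti-CD40, control anti-CD40 and control isotype was at 286 ± 76.9 (SD, n = 4), 331 ± 49.4 (n = 2) and 306 ± 113 CPM (n = 4). No order of these groups is read for Acod1 there. Upp1 itself was among the leading genes of that cluster, together with Ass1, although it was kept out of the clustering. The Rsad2 Ifit2 cluster, led by interferon-induced genes, came next for Acod1 in all 4 groups, at 216, 210, 126 and 311 CPM in control isotype, control anti-CD40, B2m-null isotype and B2m-null anti-CD40. For Upp1 the Chil3 Vcan cluster was next to the Ly6i cluster in 3 of 4 groups, at 58.5, 62.3 and 193 CPM in control isotype, control anti-CD40 and B2m-null anti-CD40. In B2m-null isotype it shared that rank with the Rsad2 cluster, both at 28.1 CPM.

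**Figure D3:**
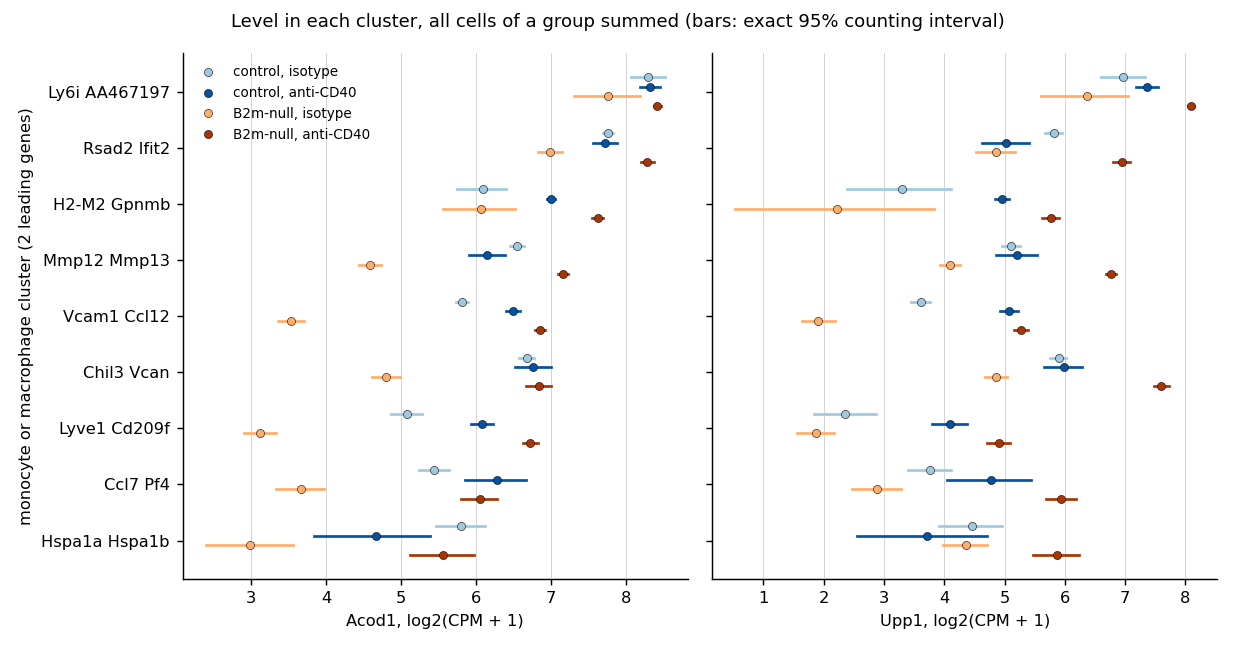
Level of Acod1 (left) and Upp1 (right) as log2(CPM + 1) in 9 monocyte and macrophage clusters, with all cells of a group summed and bars for the exact 95% counting interval, which holds no spread between mice. The B2m-null isotype point of Acod1 is the lowest of the 4 in all 9 clusters, by little in the H2-M2 cluster (65.7 against 67.0 CPM), and the B2m-null anti-CD40 point of Upp1 is the highest in all 9.

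The cluster led by the heat-shock genes Hspa1a and Hspa1b was the lowest of the 9 for Acod1 in 3 of 4 groups, at 24.3, 6.96 and 46.3 CPM in control anti-CD40, B2m-null isotype and B2m-null anti-CD40. The Lyve1 cluster was the lowest for Acod1 in control isotype, and for Upp1 in 3 of 4 groups, all but control anti-CD40. In the Lyve1 Cd209f cluster Acod1 was at 32.8, 66.9, 7.70 and 104.8 CPM and Upp1 at 4.14, 16.0, 2.66 and 28.9 CPM in control isotype, control anti-CD40, B2m-null isotype and B2m-null anti-CD40. These sums weight mice by their cells: over the 4 B2m-null anti-CD40 mice the Lyve1 cluster was at 152 ± 103 CPM of Acod1. The Vcam1 Ccl12 cluster, rich in complement C1q transcripts, had 55.1, 89.0, 10.6 and 114 CPM of Acod1. Over mice, neighbours in the order of clusters overlapped in most steps of 3 groups for Acod1: in the control isotype group, only the step from the Rsad2 to the Chil3 cluster separated all mice. For Upp1 in the B2m-null anti-CD40 group, the steps from the Chil3 to the Rsad2 cluster and from the Mmp12 to the Ccl7 cluster did. In the control anti-CD40 group, with 2 mice, 5 of the 8 steps for Acod1 and 3 of 8 for Upp1 separated the mice.

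Within clusters, the ratio of anti-CD40 to isotype in B2m-null tumours was above 1 in 9 of 9 clusters for both genes. It ran from 1.58 to 13.6 for Acod1 and from 2.94 to 14.6 for Upp1, with medians of 5.59 and 6.87. The 14.6 was in the H2-M2 cluster, with 2 Upp1 UMIs in 112 isotype cells. The 1.58 was in the Ly6i cluster, with 39 isotype cells and no mouse with at least 20. In control tumours the ratio was above 1 in 6 of 9 clusters for Acod1, with a median of 1.06, and in 7 of 9 for Upp1, with a median of 1.32. Under isotype, the ratio of B2m-null to control was below 1 in 9 of 9 clusters for both, with medians of 0.265 and 0.509. The clusters share mice and lanes, so these counts are a description. With every cluster weighted equally, the joined set's anti-CD40 change in B2m-null tumours was 1.53 for Acod1 and 2.30 for Upp1, and the genotype differences under isotype were -0.98 and -0.80.

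Among the monocyte and macrophage clusters, where the transcripts of the 2 genes sat differed by group. In B2m-null tumours under anti-CD40 the Ly6i cluster held 20.8% of monocytes and macrophages and 18.0% of their UMIs, but 35.0% of their Acod1 UMIs and 46.6% of their Upp1 UMIs. In control tumours under anti-CD40 that cluster held 3.73% of the cells, and the H2-M2 Gpnmb cluster, which also carried Nos2, held 44.6% of the cells, 46.1% of all UMIs, 51.0% of Acod1 UMIs and 40.3% of Upp1 UMIs. The Rsad2 cluster held 29.0% of Acod1 UMIs from 11.0% of the cells under isotype in control tumours, and 22.8% from 3.78% of the cells in B2m-null tumours. Of the 6046 cells of the H2-M2 cluster, 4689 came from the control anti-CD40 group, which is 1 pool. In the B2m-null anti-CD40 group the Ly6i cluster was 31.1% of monocytes and macrophages in the first pool and 7.49% in the second. Outside these clusters, those left unnamed held 14.9% of all Acod1 UMIs and 18.5% of all Upp1 UMIs in control anti-CD40, and 10.4% and 13.5% in B2m-null anti-CD40. Most of these came from 1 cluster of 4620 cells, of which 74% held T cell and myeloid transcripts together.

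**Figure D4:**
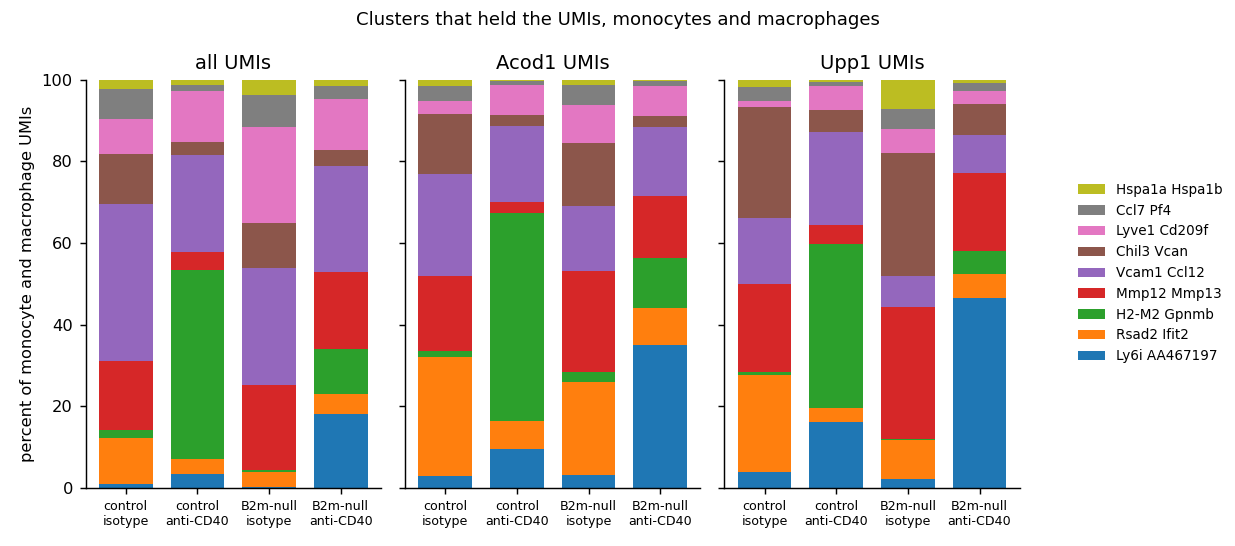
Percent of all UMIs, of Acod1 UMIs and of Upp1 UMIs of monocytes and macrophages that each of 9 clusters held, in the 4 groups. The Ly6i cluster is the widest band of Acod1 and Upp1 in B2m-null anti-CD40, at 35.0% and 46.6%, and the H2-M2 cluster in control anti-CD40.

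Neutrophils were few, with 151, 133, 242 and 317 cells in the mice used of control isotype, control anti-CD40, B2m-null isotype and B2m-null anti-CD40. Acod1 in them was at 973.7, 865.9 and 1399 CPM in 3 control isotype mice, 709.6 and 370.3 in the control anti-CD40 mice, 308.4, 702.6, 904.5 and 443.8 in 4 B2m-null isotype mice and 1121, 1084, 693.5 and 1031 in the B2m-null anti-CD40 mice. The control anti-CD40 mice lay below the control isotype mice, and the B2m-null groups overlapped. The log2 changes with anti-CD40 were -0.93 ± 0.43 in control and 0.82 ± 0.32 in B2m-null tumours, beside 0.826% and 0.859% of 3026 genes called.

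Upp1 in neutrophils was at 134.3, 103.3 and 137.9 CPM in the control isotype mice, 148.9 and 101.8 in the control anti-CD40 mice, 49.3, 67.6, 108.5 and 155.6 in the B2m-null isotype mice and 571.1, 459.1, 317.7 and 494.3 in the B2m-null anti-CD40 mice. The last group lay above all other mice. Its change against isotype was 2.19 ± 0.30. Under isotype the genotypes differed by -0.87 ± 0.35 for Acod1 and -0.23 ± 0.40 for Upp1, beside 0% of 3026 genes called by edgeR, with 164 at an unadjusted p under 0.05. In B2m-null tumours under isotype neutrophils were 1.60% of all cells and held 24.3% of all Acod1 UMIs, against 0.817% and 5.14% in control tumours under isotype.

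The set called conventional dendritic cells joins a cluster of cDC1 and cDC2 genes, led by Cd209a and with Xcr1, with mature dendritic cells. It had little Acod1, at 13.1 to 35.7 CPM in control isotype mice, 7.71 and 16.4 in control anti-CD40 mice, 1.60 to 13.3 in B2m-null isotype mice and 5.01 to 47.9 in B2m-null anti-CD40 mice, whose pools had means of 38.7 and 5.69. Upp1 in these cells was at 12.4 to 40.4, 8.21 and 15.4, 2.40 to 13.8 and 45.9 to 62.2 CPM in the same order, and the last group lay above the others. The Upp1 change with anti-CD40 in B2m-null tumours was 2.40 ± 0.39, beside 11.4% of 9909 genes called. Over all cells, also those assigned to no mouse, Upp1 in B2m-null tumours was at 11.8 CPM under isotype and 49.9 under anti-CD40 in the cDC1 and cDC2 cluster, and at 10.1 and 63.0 CPM in mature dendritic cells, ratios of 4.24 and 6.27 with no spread between mice. Over mice with at least 20 such cells, Upp1 in the cDC1 and cDC2 cluster was at 64.5 ± 27.5 CPM (SD, n = 4) under anti-CD40 and 9.08 ± 5.18 (n = 5) under isotype, a ratio of 7.10 with no overlap. In mature dendritic cells the ratio was 1.72 with overlap, at 16.6 ± 4.64 (n = 2) against 9.63 ± 6.07 CPM (n = 5). Those 2 anti-CD40 mice held 4 Upp1 UMIs in 61 cells, of 35 in 127 cells over all, so no order between the subsets is read. B cells of that group were at 10.9 to 92.2 CPM of Upp1, a range that contains the dendritic cells' values. Under isotype, the log2 difference of Acod1 between B2m-null and control dendritic cells was -1.76 ± 0.43, beside 1.91% of genes called, and the mice overlapped. It was -1.37 with cells thinned to 2000 UMIs, -1.20 with cells with T cell transcripts removed, -1.22 without the first control isotype pool and -1.13 without the second B2m-null isotype pool. Among lymphocytes, Acod1 in CD8 T cells and natural killer cells was at 0 CPM in the 4 B2m-null isotype mice with enough such cells and at means of 5.35 and 9.77 CPM in control isotype mice, while B cells, at 17.3 (n = 2) and 16.2 CPM (n = 5), and regulatory T cells, at 1.18 (n = 4) and 3.91 CPM (n = 5), overlapped. At 1000 UMIs per cell, 1.22% of control and 0.348% of B2m-null dendritic cells under isotype had an Acod1 UMI, against 1.06% and 1.30% of B cells, so the dendritic Acod1 level is not read as above background there.

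At equal depth, the share of monocytes and macrophages with an Acod1 UMI was lowest in B2m-null isotype and highest in B2m-null anti-CD40. With each cell thinned to 1000 UMIs, and shallower cells left out, it was 7.56% of 12180 cells in control isotype, 9.81% of 8821 in control anti-CD40, 1.89% of 12337 in B2m-null isotype and 14.2% of 10204 in B2m-null anti-CD40. For Upp1 the shares were 3.05%, 2.96%, 1.07% and 10.3%. Before thinning, over 13251, 10521, 13847 and 10905 cells, they were 19.3%, 22.1%, 5.47% and 34.6% for Acod1 and 8.20%, 9.56%, 3.86% and 28.4% for Upp1.

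Lymphocytes, thinned alike, were taken as the background, in which free RNA was not told apart from mixed barcodes or transcripts of their own. In B2m-null anti-CD40 mice, B cells had means of 39.3 CPM of Acod1 and 43.9 CPM of Upp1 (n = 4), against 5.33 and 3.43 CPM in CD8 T cells (n = 4). CD8 T cells had an Acod1 UMI in 0.718%, 0.429%, 0% and 0.465% of cells in control isotype, control anti-CD40, B2m-null isotype and B2m-null anti-CD40, and B cells in 1.06%, 3.98%, 1.30% and 3.08%. The 0 of 554 CD8 T cells in B2m-null isotype allows a share of up to 0.542%, by 3 counts of that total. Median depths of the cells kept were 3608.5, 3278, 4151 and 4811 UMIs in monocytes and macrophages, 4182, 1976, 2622.5 and 2355 in CD8 T cells and 3034, 3191.5, 2154.5 and 3657 in B cells. For Acod1, monocytes and macrophages lay above the exact binomial intervals of both lymphocyte types in 3 groups, and in B2m-null isotype 1.89% lay inside the B cell interval of 0.270 to 3.76%. For Upp1 they lay above the B cell interval in B2m-null anti-CD40 only, where it was 0.680 to 3.97%.

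In neutrophils thinned to 1000 UMIs, an Acod1 UMI was found in 41.1% of 73 cells, 26.7% of 105, 37.7% of 207 and 55.6% of 241 in the same order of groups, and a Upp1 UMI in 9.59%, 10.5%, 11.1% and 31.5%. In dendritic cells of the B2m-null anti-CD40 group, 3.72% had a Upp1 UMI, with an exact binomial interval of 2.10 to 6.06%, against 1.85% of B cells with an interval of 0.680 to 3.97%. The intervals overlap, and the dendritic share is not read as above background. The same holds for Acod1, at 3.23% of dendritic cells against 3.08% of B cells.

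Cells with an Acod1 UMI more often had a Upp1 UMI, with cells pooled over the clusters and mice of a group. Detection together within a cluster or a mouse was not tested. Among monocytes and macrophages thinned to 2000 UMIs, Upp1 was found in 11.7% of cells with Acod1 and 4.19% of cells without it in the control isotype group. The same shares were 11.9% and 4.99% in control anti-CD40, 8.46% and 2.00% in B2m-null isotype and 29.6% and 13.9% in B2m-null anti-CD40. In each group most cells with one of the genes had no UMI of the other at this depth.

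The genes whose levels were most like Acod1 over 47 sums of myeloid clusters by group, by Pearson correlation of log2(CPM + 1) among 9188 genes, were Ccrl2 (r = 0.89), Ptgs2os2 (r = 0.85), Fpr2 (r = 0.81), Grina (r = 0.79) and Prdx5 (r = 0.79). Ccrl2 encodes a chemerin-binding receptor and Fpr2 a formyl peptide receptor, and Prdx5 a peroxiredoxin. For Upp1 they were Ly6i (r = 0.86), Ccrl2 (r = 0.81), Fxyd5 (r = 0.79), Acod1 (r = 0.77) and Ptgs2os2 (r = 0.76). Acod1 was the fourth most alike to Upp1, and Upp1 the ninth to Acod1. The sums share lanes and mice, so these values only describe.

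Over the 16 mice, in monocytes and macrophages, the genes most like Acod1 among 12496 were Gm4951, Bcl2a1a, Psme1, Plaat3 and Slamf8, with r from 0.98 to 0.95. Bcl2a1a encodes an antiapoptotic protein of the Bcl2 family and Psme1 a proteasome activator subunit. Those most like Upp1 were Prdx5, Ass1, Itgb2, S100a11 and Ly6i, with r from 0.97 to 0.96. Ass1, argininosuccinate synthase, rebuilds arginine for nitric oxide synthesis, and was at 40.2 ± 11.2 CPM (n = 5), 30.5 ± 5.22 (n = 2), 17.7 ± 12.2 (n = 5) and 124 ± 48.5 (n = 4) in control isotype, control anti-CD40, B2m-null isotype and B2m-null anti-CD40. Acod1 and Upp1 themselves correlated at r = 0.92, which ranked Upp1 at 22 among genes like Acod1 and Acod1 at 15 among those like Upp1. The mice fall into 4 groups of 2 to 5, and the pair's levels in these groups were part of its choice, so no p is given.

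The genes around the 2 enzymes were taken from 5 lists, in monocytes and macrophages together, with edgeR adjusted p over 12496 genes. The median log2 change over all genes lay between -0.02 and 0.01 in each comparison.

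Citric acid cycle genes supply and consume the substrate of Acod1. In B2m-null tumours anti-CD40 went with 7 of 23 genes higher and 4 lower (18.3% and 18.9% of all genes), with a list median of 0.08. Sdhb, the iron-sulfur subunit of the succinate dehydrogenase that itaconate inhibits, rose by 0.82 ± 0.11 (adjusted p = 6.57e-05, edgeR), from 105 ± 12.6 (n = 5) to 161 ± 17.4 CPM (n = 4). Clybl, which clears a product of itaconate breakdown, rose by 0.62 ± 0.18 (adjusted p = 0.0127), a call lost without the second B2m-null anti-CD40 pool (adjusted p = 0.145). Idh1, cytosolic isocitrate dehydrogenase, fell by 0.57 on the log2 scale (adjusted p = 0.00514), a call lost without the first B2m-null isotype pool (adjusted p = 0.135) and on lane sums.

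In control tumours anti-CD40 went with 4 of 23 cycle genes higher and 4 lower (12.2% and 9.98% of all genes), with a median of -0.04. Fh1, fumarase, fell by 0.82 ± 0.11 (adjusted p = 7.99e-05, edgeR), from 43.2 ± 3.39 (n = 5) to 22.1 ± 1.51 CPM (n = 2). Slc25a1, the mitochondrial citrate carrier, rose by 0.62 ± 0.11 (adjusted p = 0.000756). The Fh1 and Slc25a1 calls held in all 35 alternatives with a test. Under isotype, 1 of 23 was higher and 2 were lower in B2m-null tumours (4.15% and 4.77% of all genes), Sdhb the most at -0.53 ± 0.11 (adjusted p = 0.00805). That call was lost without either first isotype pool, with adjusted p of up to 0.194. Under anti-CD40, 6 of 23 were higher in B2m-null tumours and 1 lower (4.63% and 6% of all genes), led by Fh1 at 0.83 ± 0.11 (adjusted p = 0.000639), a call lost on lane sums (adjusted p of up to 0.0805).

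Of 16 genes that itaconate is known to act on or through, such as the Nfe2l2 pathway, 5 rose and 1 fell with anti-CD40 in B2m-null tumours, and the median was 0.18. These are 37.5% of the list, beside 37.2% of all genes. Slc7a11, the cystine importer, rose by 1.70 ± 0.32 (adjusted p = 0.000749, edgeR), from 62.7 ± 26.9 (n = 5) to 179 ± 82.7 CPM (n = 4). Its partner chain Slc3a2 rose by 0.46 ± 0.08 (adjusted p = 0.000309). Prdx1 and Atf4 rose too, by 0.65 ± 0.20 and 0.38 ± 0.10 (adjusted p of 0.0180 and 0.00865, edgeR). Each of these 2 calls was lost in 4 of 36 alternatives. Gclc, the catalytic subunit of the first enzyme of glutathione synthesis and an Nfe2l2 target, fell by 0.64 on the log2 scale (adjusted p = 0.0241). The Gclc call was lost without the second B2m-null anti-CD40 pool (adjusted p = 0.177) and in 7 other alternatives. In control tumours 2 of 16 rose (12.5%, beside 22.1% of all genes called), Prdx1 by 1.03 ± 0.24 (adjusted p = 0.00694) and Atf4 by 0.52 ± 0.12 (adjusted p = 0.00748). Without the first control anti-CD40 mouse their adjusted p was 0.0601 and 0.183, and Prdx1 was also lost without the second (0.0563) and without the first control isotype pool (0.0639). Between genotypes edgeR called 0% of the 16 under either antibody, beside 8.92% of all genes under isotype and 10.6% under anti-CD40.

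Of the pyrimidine nucleoside genes, the pathway of Upp1, 4 of 27 tested rose and 1 fell with anti-CD40 in B2m-null tumours, and the median was 0.11. That is 18.5% of those tested, below the 37.2% of all genes. Dpys, dihydropyrimidinase of uracil breakdown, rose by 1.99 ± 0.40 (adjusted p = 0.00127, edgeR) at levels of 0.832 ± 0.697 (n = 5) and 3.49 ± 0.838 CPM (n = 4). Rbks, ribokinase, rose by 0.82 ± 0.17 (adjusted p = 0.00164), a call lost without the second B2m-null anti-CD40 pool (adjusted p = 0.0761). Ctps2, a CTP synthase, rose by 0.49 ± 0.10 (adjusted p = 0.00135), a call lost with cells thinned to 2000 UMIs (adjusted p = 0.0899).

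In control tumours 1 of 27 rose and 4 fell with anti-CD40 (18.5%, beside 22.1% of all genes), with a median of -0.22. Upp2, the paralogue of Upp1, rose by 0.90 ± 0.19 (adjusted p = 0.00324, edgeR), at 4.21 ± 0.724 (n = 5) and 7.12 ± 0.0638 CPM (n = 2). Uck2, the kinase that salvages uridine, fell by 1.63 ± 0.31 on the log2 scale (adjusted p = 0.00176), from 21.3 ± 5.27 (n = 5) to 6.47 ± 1.99 CPM (n = 2). Both calls were lost without the second control anti-CD40 mouse, with adjusted p = 0.0726 for each. Under anti-CD40, Uck2 was higher in B2m-null than in control tumours by 1.54 ± 0.32 (adjusted p = 0.00827), one of 3 of 27 genes higher, beside 1 lower (14.8%, against 10.6% of all genes). That call was lost without the second control anti-CD40 mouse too (adjusted p = 0.150). Under isotype none of 27 was higher and 2 were lower in B2m-null tumours (7.41%, beside 8.92% of all genes), Slc28a2, a nucleoside carrier, by -0.58 ± 0.15 and Nt5c3, a pyrimidine nucleotidase, by -0.54 ± 0.13, with adjusted p of 0.0278 and 0.0187 (edgeR). Both were lost without the first control isotype pool, with adjusted p of 0.176 and 0.324, and in several other alternatives.

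The list of inflammatory activation genes was written with results of these samples known, so its direction is no independent evidence. In B2m-null tumours anti-CD40 went with 22 of 30 genes higher and none lower (73.3%, beside 37.2% of all genes), with a median of 1.34. Ptges, prostaglandin E synthase, rose by 3.75 ± 0.61 (adjusted p = 0.000254, edgeR). Nos2, inducible nitric oxide synthase, rose by 3.59 ± 0.53 (adjusted p = 0.000116), from 19.0 ± 16.8 (n = 5) to 199 ± 76.5 CPM (n = 4). Ass1 rose by 2.93 ± 0.38 (adjusted p = 4.64e-05). Il12a was also called at 0.0588 ± 0.0984 (n = 5) and 1.60 ± 1.17 CPM (n = 4), too low for a fold.

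In control tumours 5 of 30 rose and 4 fell with anti-CD40 (30%, beside 22.1% of all genes), with a median of 0.28, and 1 rose and 2 fell without the second control anti-CD40 mouse. Saa3, an acute phase protein, rose by 4.06 ± 0.41 (adjusted p = 4.50e-06, edgeR). Nos2 rose by 2.13 ± 0.55 (adjusted p = 0.0111), to 187 ± 21.4 CPM (n = 2). The Nos2 call was lost without the second control anti-CD40 mouse (adjusted p = 0.101) and without the first control isotype pool (adjusted p = 0.0529). Il1b and the monocyte chemokine Ccl2 fell by 1.63 ± 0.43 (adjusted p = 0.0123) and 1.52 ± 0.26 on the log2 scale (adjusted p = 0.000695). The Il1b call was lost without either control anti-CD40 mouse or the first control isotype pool, with adjusted p of up to 0.145.

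Under isotype, none of the 30 was higher and 10 were lower in B2m-null tumours (33.3%, beside 8.92% of all genes), with a median of -0.73. The interferon-induced genes Cxcl10, Cxcl9, Gbp2 and Gbp5 led, at -1.66 ± 0.31, -1.59 ± 0.37, -1.41 ± 0.30 and -1.37 ± 0.33, with adjusted p of 0.00627, 0.0172, 0.00990 and 0.0196 (edgeR). None of the 30 was called without the first control isotype pool or without the first B2m-null isotype pool. Under anti-CD40, 4 of 30 were higher in B2m-null tumours and none lower (13.3%, beside 10.6% of all genes), among them Ass1 by 2.03 ± 0.49 (adjusted p = 0.0184) and Cd14, a lipopolysaccharide co-receptor, by 1.14 ± 0.18 (adjusted p = 0.00142). None of the 30 was called without the second control anti-CD40 mouse, and Ass1 was lost without the first as well (adjusted p = 0.159).

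The last list holds receptors and transcription factors of inflammatory signalling, and regulation of the pair by them was not tested. With anti-CD40 in B2m-null tumours, 13 of 32 were higher and 3 lower (50%, beside 37.2% of all genes), with a median of 0.23. Cd40 itself rose by 1.25 ± 0.22 (adjusted p = 0.000523, edgeR), and Irf1, a factor of the interferon response, by 1.16 ± 0.29 (adjusted p = 0.00576). The Irf1 call was lost without the first B2m-null anti-CD40 pool (adjusted p = 0.0680) and without the first B2m-null isotype pool (adjusted p = 0.0660). Tlr4, the lipopolysaccharide receptor, fell by 0.38 ± 0.09 on the log2 scale (adjusted p = 0.00278). Without the first B2m-null anti-CD40 pool, 7 of the 32 were called higher.

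In control tumours 21.9% of these 32 genes were called, beside 22.1% of all genes. Of them 1 rose, Hif1a, by 0.73 ± 0.24 (adjusted p = 0.0410, edgeR), and 6 fell, led by Irf7 by 1.01 ± 0.30 on the log2 scale (adjusted p = 0.0232). Without the second control anti-CD40 mouse the adjusted p was 0.363 for Hif1a and 0.177 for Irf7, without the first it was 0.0676 and 0.107, and each was lost without 1 control isotype pool (0.172 and 0.128). Under isotype none was higher and 8 of 32 were lower in B2m-null tumours (25%, beside 8.92% of all genes): Irf1 by -1.39 ± 0.28 (adjusted p = 0.00871), at 59.3 ± 28.3 (n = 5) against 148 ± 41.9 CPM (n = 5), then Irf7, Cd40 and Spi1. Spi1 was lower by -0.67 ± 0.14 (adjusted p = 0.00831). None of the 32 was called without the first control isotype pool or without the first B2m-null isotype pool. Under anti-CD40, Irf7 and Ifnar1 were higher in B2m-null tumours, by 0.99 ± 0.31 and 0.50 ± 0.12 (adjusted p of 0.0475 and 0.0198, edgeR), and none of the 32 was lower (6.25% called, beside 10.6% of all genes). Both calls were lost without either control anti-CD40 mouse, with adjusted p of up to 0.249.

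**Figure D5:**
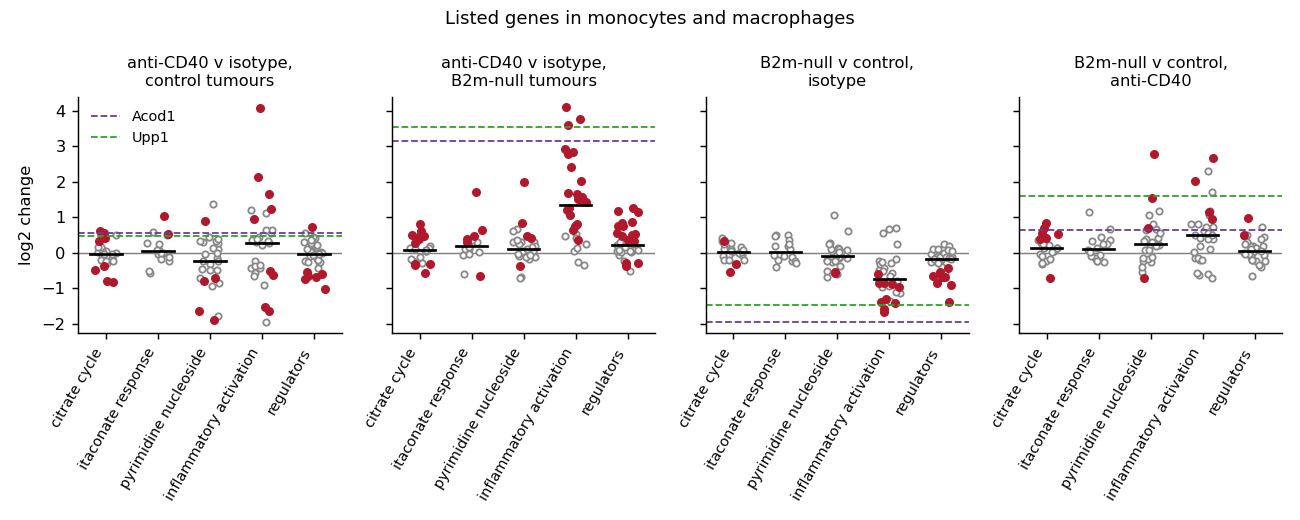
Log2 change of each gene of 5 lists in monocytes and macrophages, with 1 panel per comparison, filled points for genes past an adjusted p of 0.05, black bars for list medians and dashed lines for Acod1 and Upp1. In B2m-null tumours under anti-CD40 the dashed lines at 3.14 and 3.54 lie among the highest inflammatory activation genes, and citric acid cycle genes stay between -0.57 and 0.82.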

How the data were processed

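The authors sequenced CD45-enriched tumour cells on 10x lanes and deposited 1 matrix of raw UMI counts per lane, with hashtag counts. Per the submitters' processing notes, reads were processed with bcl2fastq 2.20.0.422 and Cell Ranger 3.0.0 against mm10. Other counting settings were not given in these sources.

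Barcodes were assigned to mice from hashtag counts (at least 20 counts, posterior of 0.9), since the labels list 3 hashtags per pool while 2 of the 8 matrices held 3 hashtag entries and 6 held 2. Barcodes under 200 genes or over 10% mitochondrial UMIs were dropped. The rest were clustered with scanpy 1.11.5 (2000 variable genes, 40 components, 20 neighbours, resolution 1) and named from listed markers. Acod1 and Upp1, which were among the 2000, were taken out before clustering. The H2-M2 Gpnmb cluster was assigned to macrophages by a reading of its markers chosen after they were seen. Barcodes with more than 1 hashtag were removed. Scrublet's own threshold marked almost no cells and was not used.

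Counts were summed per mouse and cell set where a mouse had at least 20 cells, and tested over all genes passing filterByExpr with edgeR 4.0.16 (TMM, quasi-likelihood, all 4 groups in 1 fit) in R 4.3.3, with Benjamini-Hochberg adjustment and a threshold of 0.05. Mice are the replicates. DESeq2 1.42.0, other normalization, filters, units and left-out mice or pools were alternatives. On simulated counts of 9025 genes for anti-CD40 in B2m-null tumours, 32% of genes changed by a log2 fold of 1 and 100% of those changed by 2 were recovered, with 5.71% false calls. There 100 genes were changed at each fold, with the same dispersion for all genes and no effect of pool or lane. These rates are therefore not those of the data.

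The members and lists were chosen with earlier results of these data known, and planned tests of the pair under isotype are not given because its levels in all groups were part of the choice. The text names Acod1, Upp1, up to 4 called genes per list, direction and comparison by the size of the change, the 5 genes most like each member, and leading genes of clusters.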

Additional observations from a re-analysis of the deposited data

Results flagged for a closer look

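In B2m-null tumours under isotype, 1 mouse stood far from the other 4 for Upp1. The fourth mouse was at 24.7 CPM in monocytes and macrophages together, where the others were at 2.91 to 6.62 CPM, a gap of 0.830 of the group's range against a critical value of 0.71. In macrophages it was at 19.9 CPM against 3.29 to 4.02 CPM, a gap of 0.956. Of 28 groups examined in this way 2 stood out, both through this mouse, and macrophages are part of the joined set. Chance marks about 1 in 20 independent groups, and these sets overlap, so the 2 are not set against that rate. The critical value served only to flag values for description.

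The change with anti-CD40 differed between B2m-null and control tumours, which the choice of the pair used, so the values describe. On the log2 scale the B2m-null minus control difference was 3.07 ± 0.77 (SE) for Upp1 and 2.59 ± 0.65 for Acod1 in monocytes and macrophages together. It was 2.42 ± 0.42 and 2.15 ± 0.32 in monocytes, and 2.52 ± 0.71 and 2.41 ± 0.66 in macrophages. In conventional dendritic cells it was 3.495 ± 0.72 for Upp1 and 2.03 ± 0.98 for Acod1, and in neutrophils 2.11 ± 0.55 and 1.74 ± 0.53. Part of each difference lies in the isotype groups, since both genes were lower in B2m-null than in control isotype mice by their mean levels.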

How the results depend on the processing

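In monocytes and macrophages together and in macrophages alone, no alternative difference of Acod1 or Upp1 changed sign. Differences near 0 did elsewhere: Acod1 between genotypes under anti-CD40, at 0.32 in monocytes and 0.28 in dendritic cells, reached -0.06 and -1.12 without the first B2m-null anti-CD40 pool, and Upp1 in neutrophils, at 0.08 with anti-CD40 in control tumours and -0.23 between genotypes under isotype, reached -0.30 without 1 of the technical lanes of control anti-CD40 and 0.12 without the first B2m-null isotype pool. In monocytes and macrophages together, with every cluster weighted equally the anti-CD40 change in B2m-null tumours was 1.53 for Acod1 and 2.30 for Upp1, and the isotype genotype difference was -0.98 for Acod1 and -0.80 for Upp1. The isotype genotype difference of Upp1 was -1.66 with DESeq2, -1.47 with no low-count filter and -1.58 at clustering resolution 2, and the cause was not tested. Leaving out each mouse or pool gave Acod1 changes of 0.31 to 0.94 with anti-CD40 in control tumours, 2.76 to 3.70 in B2m-null tumours, -2.52 to -1.55 between genotypes under isotype and 0.27 to 0.96 under anti-CD40. For Upp1 the ranges were 0.08 to 1.22, 3.01 to 4.82, -2.74 to -0.71 and 1.32 to 1.84. With a replicate block over the 3 groups with numbered pools, the values were 3.08 and -1.86 for Acod1 and 3.48 and -1.38 for Upp1, with anti-CD40 in B2m-null tumours and between genotypes under isotype. The numbers only name pools, and 2 pairs cannot show that they pair mice. Among listed genes, 473 alternative values lost their call and 2535 kept it. Few mice limit every control anti-CD40 value.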

Other observations

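Neutrophils, pooled over mice, shared the joint detection seen in pooled monocytes and macrophages. Among neutrophils thinned to 2000 UMIs in B2m-null tumours under anti-CD40, a Upp1 UMI was found in 51.7% of 60 cells with an Acod1 UMI and in 28.3% of the rest.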
